A study of Mus musculus with 16 samples.

Results

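Of 22612 genes measured in mouse liver, 8 genes of zinc handling are described here: 4 zinc importers (Slc39a4, Slc39a5, Slc39a8 and Slc39a14), 2 exporters of the ZnT family (Slc30a1 and Slc30a10) and the metallothioneins Mt1 and Mt2. They were taken by gene name, and all 8 were found. They were named with the levels of the 4 diet groups already known, so their group levels are given here as a description. No p-value is printed for those levels, and calls on them by a fit over all genes are named with no conclusion drawn. The study sequenced RNA from livers of male C57BL/6 mice, bought at 7 weeks of age and acclimated for 1 week, after 16 weeks on a regimen and an overnight fast. Ketogenic-alternating mice changed every 2 weeks between a high-fat diet with 58% of energy from fat and a ketogenic diet with 90.5%. Chow-alternating mice changed every 2 weeks between the high-fat diet and a chow with 11% of energy from fat. High-fat mice stayed on the 58% diet, and chow mice stayed on the 11% diet. Each group held 6 mice and gave 4 libraries, 16 in all. Neither the last diet of the alternating mice nor the animal behind each library is stated, so the spread given here is the spread between libraries, which may be in part technical. The zinc content of the diets is not given in the sources used here.

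ZIP proteins (the Slc39 family) carry zinc into the cytosol from outside the cell or from organelles, and ZnT proteins (the Slc30 family) carry it out of the cytosol. Several members of both families also carry manganese or iron. Metallothioneins are small cysteine-rich proteins that bind zinc and copper, and their genes are switched on by zinc through the metal-sensing factor Mtf1, and by glucocorticoids and inflammation. The liver takes up zinc from blood during the acute phase response and stores part of it on metallothionein.

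Levels are in TPM, transcript abundance corrected for length and given as a share of each library's total, which keeps no sequencing depth, so counting error is not known. The 20 most abundant genes took 27.1% to 38.8% of the TPM of a library, and exceeded 33% in high-fat libraries 1 and 2 and chow libraries 2 and 3. Between 10575 and 11695 genes reached 1 TPM per library. The 6 hepatocyte markers summed to 81656 to 115879 TPM, and no pair of libraries was identical. Ketogenic-alternating library 1 stood apart: its summed markers of 6 of 14 cell type sets were the highest of the 16 libraries. Its cholangiocyte markers summed to 176 TPM, against 29.7 to 42.4 TPM in the other 3 ketogenic-alternating libraries, and its stellate cell markers to 321 TPM, against 146 to 200 TPM. Its recruited macrophage markers summed to 75.4 TPM, against 16.3 to 24.5 TPM in those 3 libraries. In library 1 a single gene made up most of each of these sums: Spp1 (157 TPM), Dcn (252 TPM) and Cd9 (40.7 TPM), in that order. In bulk liver, fewer cells of a type and less RNA per cell cannot be told apart.

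Mt1 and Mt2 were the most abundant of the 8 genes, at 434 and 170 TPM over the 16 libraries. Slc39a14 averaged 59.8 TPM and Slc39a4 23.5 TPM, Slc39a8, Slc30a1 and Slc30a10 lay between 11.4 and 13.9 TPM, and Slc39a5 averaged 0.613 TPM. The groups differed most in Mt2, whose highest group mean was 6.56 times its lowest, in Slc39a4 (6.30 times) and in Mt1 (4.62 times). Slc39a8 differed least, at 1.22 times.

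**Figure D1:**
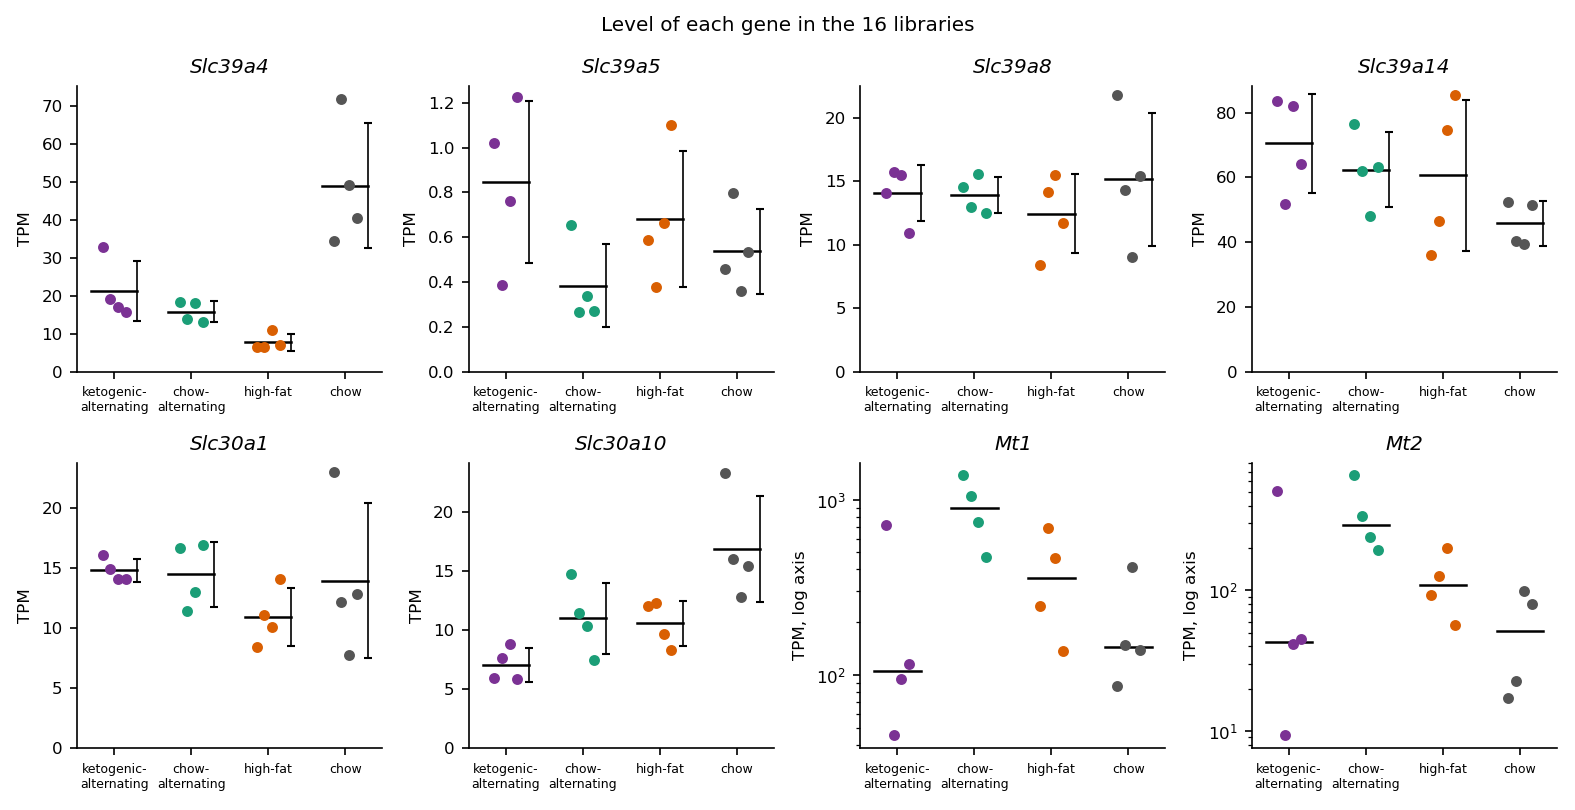
TPM of the 8 genes in each library (points), with the group mean and SD (line and bar, n = 4), or on the log axes of Mt1 and Mt2 the group median (line). The chow libraries of Slc39a4 sit between 34.4 and 72.0 TPM, above all others, and ketogenic-alternating library 1 stands above the other 3 of its group in Mt1 and Mt2.

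Slc39a4 encodes ZIP4, the importer that takes up dietary zinc in the small intestine and is mutated in the human zinc deficiency acrodermatitis enteropathica. The gene (ENSMUSG00000063354) lies at chr15:76612385-76616852 on the minus strand of GRCm38 and has 12 exons. Its levels were 32.9, 19.2, 17.1 and 15.7 TPM in ketogenic-alternating libraries, 18.4, 14.02, 18.1 and 13.0 TPM in chow-alternating libraries, 6.57, 6.48, 11.1 and 6.94 TPM in high-fat libraries, and 34.4, 72.0, 49.1 and 40.4 TPM in chow libraries. Every chow library was above every other library, and every high-fat library was below every other library. The group means were 21.2 ± 7.91 TPM in ketogenic-alternating, 15.9 ± 2.75 TPM in chow-alternating, 7.78 ± 2.24 TPM in high-fat and 49.0 ± 16.5 TPM in chow (SD, n = 4 each). In order, high-fat was lowest, then chow-alternating, ketogenic-alternating and chow, and the neighbours chow-alternating and ketogenic-alternating overlapped.

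On the log2(TPM + 1) scale, which understates differences near 1 TPM, Slc39a4 in high-fat minus chow differed by -2.49 (SE 0.28), a mean 6.30 times lower. The difference was -1.53 (SE 0.25) for chow-alternating minus chow and -1.17 (SE 0.32) for ketogenic-alternating minus chow. Against high-fat, it was 1.31 (SE 0.28) for ketogenic-alternating and 0.96 (SE 0.20) for chow-alternating. Ketogenic-alternating minus chow-alternating was 0.35 (SE 0.26). The 3 differences from chow share the 4 chow libraries, and those from high-fat share the 4 high-fat libraries. Without high-fat library 3, the highest of its group, the difference of high-fat minus chow was -2.65 (SE 0.23). Without the libraries over 33%, it was -1.96. Without ketogenic-alternating library 1, ketogenic-alternating minus chow was -1.40 (SE 0.24) and ketogenic-alternating minus high-fat 1.09 (SE 0.18), both still with no overlap.

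A limma fit across all genes, with Benjamini-Hochberg adjustment and a gene called at an adjusted p below 0.05, gives the background for these differences. In high-fat minus chow it called 1.06% of 10960 genes, and of the 7 members it tested it called 1, Slc39a4. The libraries of the 2 diets did not overlap, with high-fat lower, for 5.73% of genes and for 2 of the 8 members, Slc39a4 and Slc30a10. In chow-alternating minus chow it called 1.16% of 10862 genes and 3 members, Slc39a4, Mt1 and Mt2. There 5.54% of genes had no overlap with chow-alternating lower. In ketogenic-alternating minus chow it called 1.33% of 11091 genes with the lower level in ketogenic-alternating, and 2 members, Slc39a4 and Slc30a10, both lower. No member was called in the other 3 comparisons, in which limma called 0.0459% (chow-alternating minus high-fat), 0.0360% (ketogenic-alternating minus high-fat) and 5.04% (ketogenic-alternating minus chow-alternating) of genes. At an unadjusted p below 0.05, 3 members passed in each of these 3 comparisons, beside 4.15% of all genes in chow-alternating minus high-fat, 10.05% in ketogenic-alternating minus high-fat and 29.0% in ketogenic-alternating minus chow-alternating. No overlap with the higher level in the alternating group was seen for 1.78% of genes in chow-alternating minus high-fat and 6.30% in ketogenic-alternating minus high-fat, and in both for 1 member, Slc39a4. The members were chosen on these levels, so nothing is read from the counts. The median difference of the 8 members was -0.06 in high-fat minus chow, 0.03 in chow-alternating minus chow and 0.06 in ketogenic-alternating minus chow, beside -0.05, -0.04 and 0.15 for all genes tested. The calls on Slc39a4 in high-fat minus chow and on Slc30a10 in ketogenic-alternating minus chow held in 14 of 14 alternative fits. The call on Slc39a4 in chow-alternating minus chow was lost with no filter on low levels. That in ketogenic-alternating minus chow was lost on leaving out any of ketogenic-alternating libraries 2, 3 and 4 or chow libraries 2, 3 and 4, where its difference ranged from -1.25 to -0.97. It was also lost with no filter and without the libraries over 33%, where the difference was -0.84. The calls in chow-alternating minus chow were lost for both Mt1 and Mt2 on leaving out chow-alternating library 1, 2 or 3 or chow library 2, for Mt1 also without chow library 4 and for Mt2 also without chow-alternating library 4. Both were also lost with no filter and with 1 fit over all 16 libraries, and Mt2 without the libraries over 33%. Without high-fat library 3, Slc39a4 was called against high-fat in chow-alternating (beside 0.298% of genes) and ketogenic-alternating (0.201%). In ketogenic-alternating minus chow-alternating, Mt1 and Mt2 were called without ketogenic-alternating library 1 (beside 3.14% of genes), and Mt1 without library 4 (2513 of 10917). Slc39a14 was called in ketogenic-alternating minus chow without chow library 1 (beside 1620 of 10943). Nothing is read from these gains.

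Markers of other tissues and zones were measured beside Slc39a4. The enterocyte genes Lct and Sis were at 0 TPM in all 16 libraries, and the 5 enterocyte markers together reached 0.418 TPM at most outside ketogenic-alternating library 1, where they summed to 3.73 TPM. The 6 markers of pericentral hepatocytes, the cells around the central vein, summed to 8622 to 12750 TPM in ketogenic-alternating libraries, 7597 to 9879 TPM in chow-alternating libraries, 7153 to 10246 TPM in high-fat libraries and 4754 to 5982 TPM in chow libraries. Cyp2e1, an alcohol-oxidising cytochrome, made up 78.1% to 88.1% of each sum. The other 5 markers, summed apart after the values were seen, came to 1472 to 1972 TPM in ketogenic-alternating, 1298 to 1659 TPM in chow-alternating, 1046 to 1371 TPM in high-fat and 664 to 1155 TPM in chow libraries, with overlap between high-fat and chow. The 6 markers of periportal hepatocytes, the cells around the portal vein, summed to 3784 to 5073 TPM in ketogenic-alternating and 4157 to 6182 TPM in chow-alternating libraries. Their sums were 2823 to 6397 TPM in high-fat and 5719 to 7670 TPM in chow libraries, and chow overlapped chow-alternating and high-fat. The part of the zone markers in Slc39a4 was not tested.

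Slc39a14 encodes ZIP14, the importer that brings zinc into hepatocytes during inflammation and also carries manganese and iron not bound to transferrin. It ranged from 51.8 to 83.7 TPM in ketogenic-alternating, 48.1 to 76.3 TPM in chow-alternating, 35.9 to 85.4 TPM in high-fat and 39.5 to 52.3 TPM in chow libraries. All 4 ranges overlapped, and the ketogenic-alternating and chow ranges met through ketogenic-alternating library 2 alone. The largest difference was 0.59 (SE 0.19) for ketogenic-alternating minus chow, with means of 70.5 ± 15.2 TPM in ketogenic-alternating and 45.9 ± 6.95 TPM in chow (SD, n = 4 each). It was 0.45 after scaling each library to its upper quartile. Chow-alternating averaged 62.4 ± 11.5 TPM and high-fat 60.6 ± 23.2 TPM.

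Slc39a8 encodes ZIP8, a plasma membrane importer of zinc and manganese. It averaged 14.04 ± 2.22 TPM in ketogenic-alternating, 13.9 ± 1.43 TPM in chow-alternating, 12.5 ± 3.12 TPM in high-fat and 15.1 ± 5.23 TPM in chow libraries, and the groups overlapped in every comparison. Its 6 differences lay between -0.24 and 0.18 on the log2 scale. Slc39a5 encodes ZIP5, best known from the basolateral membrane of the intestine and from the pancreas. Its levels ran from 0.268 to 1.22 TPM, under the filter of 1 TPM in 4 libraries, so it was not tested in any comparison. It averaged 0.848 ± 0.361 TPM in ketogenic-alternating, 0.383 ± 0.185 TPM in chow-alternating, 0.683 ± 0.303 TPM in high-fat and 0.537 ± 0.188 TPM in chow libraries, with overlap throughout. Of 6 exocrine pancreas markers listed, 5 were found. They summed to 14.6 to 23.9 TPM in ketogenic-alternating, 22.9 to 28.9 TPM in chow-alternating, 17.4 to 33.04 TPM in high-fat and 10.48 to 17.98 TPM in chow libraries. Of these Cela1 reached 9.55 to 32.02 TPM over the 16 libraries, and Pnlip was at 0 TPM in all of them. Their part in Slc39a5 was not tested.

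Slc30a10 encodes ZnT10, a transporter named for its zinc family that exports manganese from hepatocytes into bile. The gene (ENSMUSG00000026614) lies at chr1:185454848-185468762 on the plus strand and has 4 exons. Its levels were 5.91, 7.68, 8.81 and 5.87 TPM in ketogenic-alternating libraries, 14.75, 11.5, 10.4 and 7.47 TPM in chow-alternating libraries, 12.0, 12.3, 9.68 and 8.31 TPM in high-fat libraries, and 23.3, 16.0, 12.8 and 15.4 TPM in chow libraries. The ketogenic-alternating libraries were all below the chow libraries, and so were the high-fat libraries. The difference was -1.13 (SE 0.21) for ketogenic-alternating minus chow, -0.58 (SE 0.25) for chow-alternating minus chow and -0.61 (SE 0.21) for high-fat minus chow. Chow-alternating and high-fat, with means of 11.0 ± 3.01 and 10.6 ± 1.92 TPM, differed by 0.03 (SE 0.22). Ketogenic-alternating was lowest at 7.07 ± 1.44 TPM, and chow highest at 16.9 ± 4.50 TPM (SD, n = 4 each). Ketogenic-alternating overlapped chow-alternating and high-fat, with differences of -0.56 (SE 0.22) and -0.52 (SE 0.18). Without ketogenic-alternating library 1, the difference from chow was -1.06 (SE 0.23), with no overlap. Without the libraries over 33%, the log2 fold change of Slc30a10, high-fat minus chow, was -1.001. Ketogenic-alternating libraries were all below chow for 3.98% of genes.

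Slc30a1 encodes ZnT1, the plasma membrane zinc exporter. It averaged 14.8 ± 0.979 TPM in ketogenic-alternating, 14.5 ± 2.70 TPM in chow-alternating, 10.9 ± 2.38 TPM in high-fat and 13.9 ± 6.44 TPM in chow libraries, and overlapped in all comparisons. Its largest difference was 0.42 (SE 0.15) for ketogenic-alternating minus high-fat. Under upper-quartile scaling, which lowered the median of all genes by 0.17 in that comparison and by 0.16 in ketogenic-alternating minus chow-alternating, the difference was 0.23. The order of ketogenic-alternating and chow-alternating turned round under this scaling for Slc30a1 (0.04 as deposited, -0.12 scaled), Slc39a8 (0.01 and -0.16) and Slc39a14 (0.16 and -0.01). The same held for Slc39a8 in ketogenic-alternating minus high-fat (0.18 and -0.01).

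**Figure D2:**
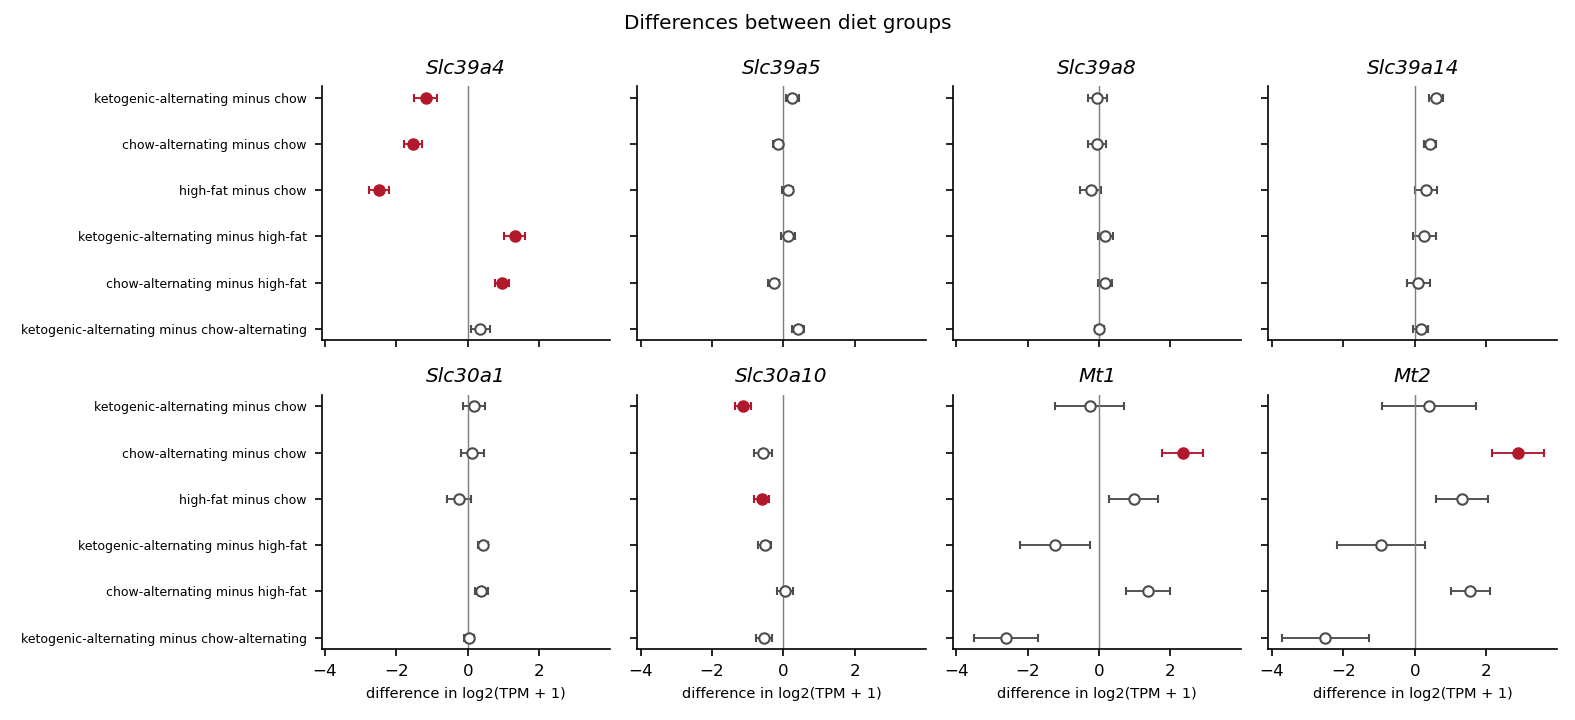
Differences in log2(TPM + 1) between diet groups for each gene, with SE bars (n = 4 each), the named group minus the one after "minus". Filled red points mark groups whose libraries do not overlap: 5 comparisons for Slc39a4, 2 for Slc30a10 and 1 each for Mt1 and Mt2.

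The metallothionein genes lie side by side on chromosome 8, Mt2 at chr8:94172664-94173568 and Mt1 at chr8:94179082-94180327 on the plus strand of GRCm38, with 5513 bases between them. Their coding sequences are shown because they hold the metal-binding cysteines that define the family. Each has 186 bases in 3 exons, with 61 codons before the stop. In the GENCODE transcripts, with cysteine codons (TGC or TGT) in capitals, they read:
Mt1: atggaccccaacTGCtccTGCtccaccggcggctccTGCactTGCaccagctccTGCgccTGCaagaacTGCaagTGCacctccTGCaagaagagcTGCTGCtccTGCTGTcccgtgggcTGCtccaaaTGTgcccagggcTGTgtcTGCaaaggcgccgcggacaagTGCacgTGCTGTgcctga
Mt2: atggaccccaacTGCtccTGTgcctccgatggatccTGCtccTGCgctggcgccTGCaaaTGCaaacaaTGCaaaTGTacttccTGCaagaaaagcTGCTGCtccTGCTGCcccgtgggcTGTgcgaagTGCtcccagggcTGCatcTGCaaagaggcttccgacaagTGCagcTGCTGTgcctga
Each holds 20 cysteine codons, all 20 at the same codon positions in both. The sequences are identical at 148 of 186 bases (79.6%), and the differing bases are spread along their length. Whether any reads fitted both genes was not measured, so an effect on the split between Mt1 and Mt2 is not known.

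Mt1 was measured at 718, 45.3, 95.04 and 115 TPM in ketogenic-alternating libraries, 1374, 1050, 747 and 469 TPM in chow-alternating libraries, 248, 691, 467 and 137 TPM in high-fat libraries, and 87.1, 148, 414 and 139 TPM in chow libraries. Mt2 was measured at 507, 9.32, 41.6 and 44.8 TPM in ketogenic-alternating libraries, 656, 341, 239 and 195 TPM in chow-alternating libraries, 93.1, 126, 199.3 and 56.9 TPM in high-fat libraries, and 17.3, 22.6, 98.4 and 79.9 TPM in chow libraries. All 4 chow-alternating libraries were above all 4 chow libraries for both genes. Ketogenic-alternating library 1 was 7.56 times the median of the other 3 of its group for Mt1 and 12.2 times for Mt2.

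Chow-alternating minus chow was 2.34 (SE 0.58) for Mt1, with means of 910 ± 390 TPM in chow-alternating and 197 ± 147 TPM in chow (SD, n = 4 each). It was 2.89 (SE 0.73) for Mt2, with means of 358 ± 208 TPM in chow-alternating and 54.5 ± 40.7 TPM in chow. Groups with no overlap and the higher level in chow-alternating made up 2.94% of genes. High-fat minus chow was 0.97 (SE 0.70) for Mt1 and 1.33 (SE 0.72) for Mt2, with overlap, and high-fat means of 386 ± 245 and 119 ± 60.6 TPM. Chow-alternating minus high-fat was 1.38 (SE 0.61) for Mt1 and 1.56 (SE 0.54) for Mt2, also with overlap.

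The ketogenic-alternating differences moved with the libraries included. With all 4 libraries, ketogenic-alternating minus chow-alternating was -2.60 (SE 0.90) for Mt1 and -2.50 (SE 1.23) for Mt2, with overlap, and the ketogenic-alternating means were 244 ± 318 and 151 ± 238 TPM. Without library 1 the difference was -3.39 (SE 0.52) for Mt1 and -3.56 (SE 0.80) for Mt2, with no overlap. Library 1 was the only library of its group within the chow-alternating range, so the absence of overlap follows from leaving it out. Ketogenic-alternating minus chow was -0.26 (SE 0.96) for Mt1 and 0.39 (SE 1.32) for Mt2 with all libraries. It was -1.05 (SE 0.62) for Mt1 and -0.67 (SE 0.93) for Mt2 without library 1, still with overlap. Ketogenic-alternating minus high-fat was -1.23 (SE 0.98) for Mt1 and -0.94 (SE 1.23) for Mt2 with all libraries, and -2.02 (SE 0.65) and -1.996 (SE 0.79) without library 1. Leaving out library 2 in place of library 1 moved them the other way. Ketogenic-alternating minus high-fat was then -0.70 (SE 1.06) for Mt1 and -0.12 (SE 1.23) for Mt2, and ketogenic-alternating minus chow-alternating was -2.08 (SE 0.98) for Mt1 and -1.68 (SE 1.24) for Mt2. Ketogenic-alternating minus chow was 0.27 (SE 1.04) for Mt1 and 1.21 (SE 1.33) for Mt2 without library 2, with overlap in all 3 comparisons.

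Acute phase genes were measured in the same libraries. In ketogenic-alternating library 1, the apolipoprotein Saa1 was at 675 TPM and the iron-sequestering Lcn2 at 121 TPM, against 73.4 to 210 TPM and 10.9 to 12.8 TPM in the other 3 of its group. Of the 12 acute phase genes listed, 7 were above the other 3 libraries in library 1, and 5 were not. The same count was not made over all genes, so nothing is read from the 7. Among the 5, Hp, a haemoglobin-binding plasma protein, was at 4840 TPM against 3745 to 4868 TPM. The cytokine signal inhibitor Socs3 was at 11.1 TPM against 5.49 to 11.8 TPM, and the receptor Il6ra at 14.7 TPM against 14.9 to 27.0 TPM. Saa1 rose to 598 ± 337 TPM in chow-alternating, against 38.6 ± 18.8 TPM in chow (log2 difference 3.87, SE 0.46, limma adjusted p = 0.00516), and rose to 333 ± 202 TPM in high-fat against the same chow libraries (3.05, SE 0.44, adjusted p = 0.00855). In ketogenic-alternating Saa1 also rose, to 284 ± 267 TPM (2.55, SE 0.57, limma adjusted p = 0.0264), a call that held without 5 of 8 single libraries. The median difference from chow of the 12 genes was 0.44 in chow-alternating, 0.36 in high-fat and 0.48 in ketogenic-alternating. That of all genes tested was -0.04, -0.05 and 0.15. Not all of the 12 rose: the difference was positive for 11, 8 and 8 of them in that order. The part of these genes and of the marker levels of library 1 in the metallothionein levels was not tested.

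Mt1 and Mt2 varied together among libraries of the same diet. On deviations from the group means, Pearson's r was 0.906 and Spearman's rho 0.856 (n = 16, permutation p = 1e-05 for r, the smallest that 100000 resamples can give, adjusted p = 0.00028 over 28 pairs of members). Without the 2 libraries farthest from the median Mt1 deviation r was 0.811. An r of this size was not particular to the pair. On the same kind of deviations Mt2 had r 0.912 with Adgrl1, and Slc39a8 had r 0.967 with Snx25. The ratio of Mt1 to Mt2 was nonetheless not fixed: it lay between 1.42 in ketogenic-alternating library 1 and 6.56 in chow library 2. No other pair of members passed after adjustment, and 7 of the 28 had an unadjusted p below 0.05.

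**Figure D3:**
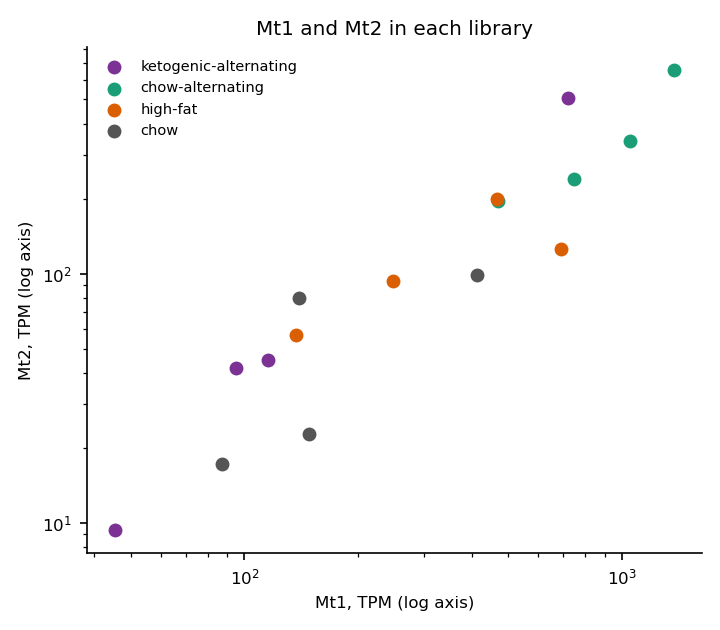
Mt2 against Mt1 in TPM, both on log axes, 1 point per library, coloured by diet. Libraries with more Mt1 tend to hold more Mt2, and the ketogenic-alternating libraries span 9.32 to 507 TPM of Mt2.

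The stretches before the 2 starts are shown because metal response elements, the sites bound by Mtf1, are the known zinc switch of these genes. The RefSeq windows (GRCm38.p6) run from 250 bases before to 50 bases after the annotated start, and the printed part is 200 bases of the plus strand that end before both the RefSeq and the GENCODE start. Capitals mark the 7-letter core TGCGCNC or TGCACNC, searched on both strands:
Mt1, chr8:94178882-94179081: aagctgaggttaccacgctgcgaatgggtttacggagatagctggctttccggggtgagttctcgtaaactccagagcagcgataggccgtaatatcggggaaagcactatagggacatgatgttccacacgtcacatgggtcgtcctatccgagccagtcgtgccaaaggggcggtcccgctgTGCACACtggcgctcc
Mt2, chr8:94172418-94172617: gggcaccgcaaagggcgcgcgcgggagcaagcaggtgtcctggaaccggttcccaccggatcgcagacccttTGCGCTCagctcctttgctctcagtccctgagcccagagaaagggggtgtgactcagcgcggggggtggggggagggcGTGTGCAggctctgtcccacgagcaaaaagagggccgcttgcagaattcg
The table held 8 windows for 6 of the 8 members. Counted over whole windows, parts not printed included, the core matched 3 times in the Mt1 window, 4 times in that of Mt2, 3 times in that of Slc30a10 (2 of them overlapping on opposite strands) and 2 times in that of Slc30a1. Slc39a5 and Slc39a8 have 2 windows each, of which 1 held 1 match and the other none. Of all 32851 windows, 25.7% held at least 1 match, 1.97% at least 3 and 0.517% at least 4. The printed stretches hold 1 of the 3 Mt1 matches and 2 of the 4 Mt2 matches. The RefSeq starts lie 222 bases (Mt1) and 230 bases (Mt2) before the start codon, so the windows end well before it. The bases between the windows and the start codon were not searched, so the windows need not hold all such elements. A match is a string of letters and not a bound site, and a window without one lacks only these letters.

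Few of the other zinc genes passed a test. Of 21 listed genes (further ZIP, ZnT and metallothionein genes and Mtf1), 12 averaged at least 1 TPM, 9 were under it, and Mt4 was at 0 TPM in all 16 libraries. The most abundant were Slc39a7 (52.2 TPM), which releases zinc from the endoplasmic reticulum, the plasma membrane importer Slc39a1 (49.4 TPM), Slc30a5 (17.1 TPM), which loads zinc into the secretory pathway, and the mitochondrial Slc30a9 (16.6 TPM). Of these 4, none passed the test in any comparison, and Slc39a7 averaged 56.5 ± 5.78 TPM in ketogenic-alternating, 56.0 ± 5.86 TPM in chow-alternating, 48.0 ± 17.03 TPM in high-fat and 48.3 ± 13.6 TPM in chow libraries. The sensor Mtf1 averaged 4.85 ± 0.333 TPM in ketogenic-alternating, 4.33 ± 0.260 TPM in chow-alternating, 3.82 ± 1.31 TPM in high-fat and 4.16 ± 1.13 TPM in chow libraries. The median difference of the 6 further importers tested in ketogenic-alternating minus chow was 0.41, that of the 5 exporters 0.18 and that of all genes tested 0.15.

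Slc39a9, a zinc importer of the Golgi and cell surface, rose in ketogenic-alternating against chow-alternating, the only call among the 21 genes. Its levels were 25.3, 23.6, 24.8 and 16.9 TPM in ketogenic-alternating and 14.7, 12.3, 13.9 and 15.2 TPM in chow-alternating libraries, with no overlap, as for 14.7% of genes in that direction. The difference was 0.64 (SE 0.14, limma adjusted p = 0.0275), higher in 4 of 4 ketogenic-alternating libraries, beside 4.31% of genes called higher in that comparison. After upper-quartile scaling it was 0.47. The call held in 3 of 13 alternatives, with adjusted p from 0.00567 to 0.278. It was lost without any of ketogenic-alternating libraries 1, 2 and 3 or chow-alternating libraries 1, 2 and 3, where the difference lay between 0.58 and 0.66. In the other 5 comparisons limma called 0 of the 12 or 13 genes tested. At an unadjusted p below 0.05, it passed 1 in ketogenic-alternating minus high-fat, 4 in ketogenic-alternating minus chow and 0 in the other 3, beside 10.05% of all genes in ketogenic-alternating minus high-fat, 22.2% in ketogenic-alternating minus chow and 4.15% to 12.3% in the other 3.

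**Figure D4:**
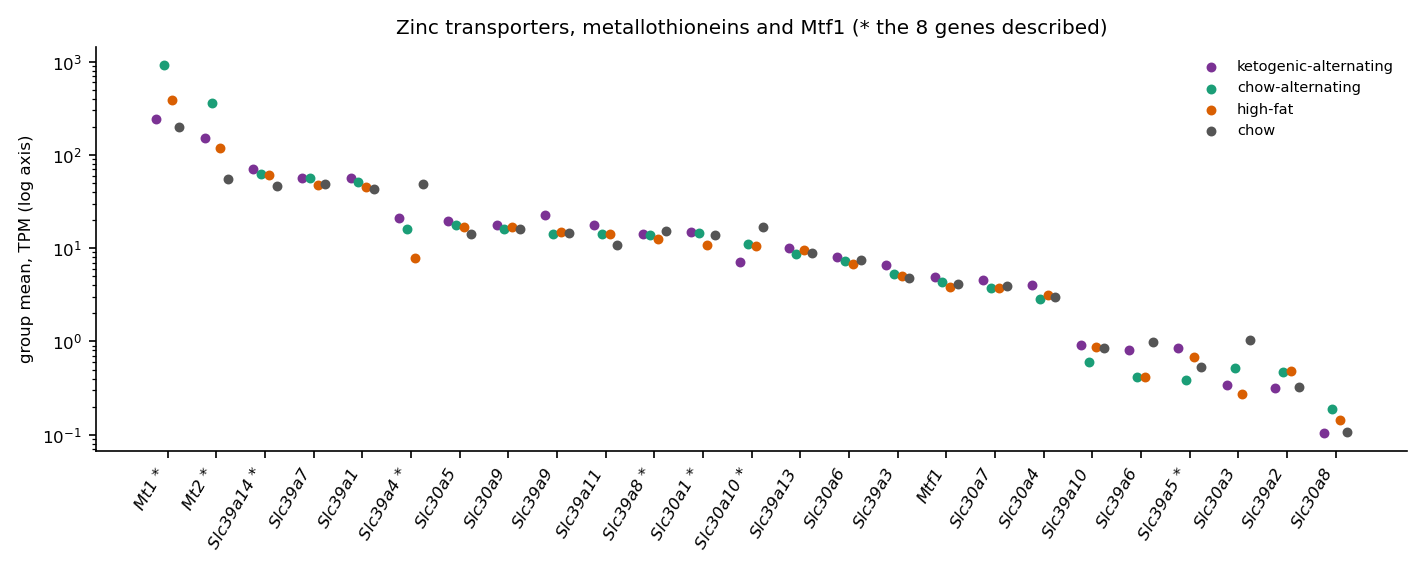
Group mean TPM on a log axis for the 25 zinc genes that average at least 0.1 TPM, in order of their mean over 16 libraries, coloured by diet. Asterisks mark the 8 genes described; the spread between groups is widest for Mt1, Mt2 and Slc39a4 among genes above 10 TPM.

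Of 14 enzymes that need zinc, Bhmt, which remethylates homocysteine from betaine, rose in each group against chow. It averaged 3408 ± 914 TPM in ketogenic-alternating, 3316 ± 845 TPM in chow-alternating, 3899 ± 1251 TPM in high-fat and 1191 ± 365 TPM in chow libraries (SD, n = 4 each). The differences from chow were 1.52 (SE 0.24, limma adjusted p = 0.00543), 1.49 (SE 0.22, adjusted p = 0.0111) and 1.70 (SE 0.28, adjusted p = 0.0149) in that order, on shared chow libraries. The call in high-fat was lost without high-fat library 2 or chow library 4, with adjusted p up to 0.0716. Car5a, the mitochondrial carbonic anhydrase, rose to 137 ± 22.8 TPM in ketogenic-alternating, against 68.1 ± 19.5 TPM in chow (1.03, SE 0.22, adjusted p = 0.0218). Sord, the sorbitol dehydrogenase, rose to 1182 ± 82.2 TPM in ketogenic-alternating, against 750 ± 144 TPM in chow (0.67, SE 0.15, adjusted p = 0.0284). Car2, the cytosolic carbonic anhydrase, rose to 6.80 ± 1.48 TPM in ketogenic-alternating, against 3.83 ± 0.915 TPM in chow-alternating (0.69, SE 0.17, adjusted p = 0.0465). These last 3 calls were lost on leaving out 4, 5 and 6 of 8 single libraries, with adjusted p up to 0.0845, 0.107 and 0.134. No enzyme of the list passed the test with a fall. In ketogenic-alternating minus chow 3 of the 14 were called higher, beside 407 of 11091 genes called higher and 148 lower. The list had 1 call each in high-fat minus chow, chow-alternating minus chow and ketogenic-alternating minus chow-alternating. There 63 of 10960, 70 of 10862 and 474 of 11002 genes were called higher. The median difference of the 14 was 0.24 in ketogenic-alternating minus chow, 0.19 in chow-alternating minus chow and 0.15 in high-fat minus chow. That of all genes tested was 0.15, -0.04 and -0.05.

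Transcript shares within the members were tested, since they are not fixed by the gene levels. Slc39a8 had a retained-intron transcript (ENSMUST00000139953, chr3:135825654-135859778, 6 exons, plus strand) whose share was lower outside chow. It held 6.77%, 4.50%, 4.55% and 6.37% of Slc39a8 TPM in ketogenic-alternating libraries, 5.55%, 9.99%, 9.10% and 6.91% in chow-alternating libraries, 6.14%, 6.45%, 8.31% and 5.22% in high-fat libraries, and 17.03%, 14.6%, 18.4% and 12.6% in chow libraries. No library of the 3 other diets reached the chow range. How many of all transcripts had shares with no overlap was not counted, so nothing particular to this transcript is read from it. The means differed by -10.1 percentage points for ketogenic-alternating minus chow, -7.76 points for chow-alternating minus chow and -9.11 points for high-fat minus chow. Each had an exact two-sided permutation p of 0.0286, the smallest that 4 against 4 libraries allow, and an adjusted p of 0.343 over 60 tests of shares. With 60 tests, a share could pass after adjustment only if 35 of them reached that smallest p, so the exact tests could not settle a single share. The limma fit over 15799 to 16472 transcripts called none of the 6 to 8 member transcripts it tested in any of the 6 comparisons. At an unadjusted p below 0.05 it passed 1 member transcript in high-fat minus chow, 1 in chow-alternating minus chow, 2 in ketogenic-alternating minus chow and 0 in the other 3. The same rule passed 3.93%, 5.17% and 7.56% of all transcripts in those 3, and 4.15% in chow-alternating minus high-fat, 4.57% in ketogenic-alternating minus high-fat and 5.53% in ketogenic-alternating minus chow-alternating. Of all transcripts it called 0.00607% in high-fat minus chow, 0.0188% in chow-alternating minus high-fat, 0% in ketogenic-alternating minus high-fat, 0.0253% in ketogenic-alternating minus chow-alternating, 0.00621% in chow-alternating minus chow and 0.0182% in ketogenic-alternating minus chow. Over all 60 exact tests, 5 had an unadjusted p below 0.05. The transcript was low, at 0.765 ± 0.125 TPM in ketogenic-alternating, 1.09 ± 0.304 TPM in chow-alternating, 0.833 ± 0.348 TPM in high-fat and 2.35 ± 0.925 TPM in chow libraries.

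**Figure D5:**
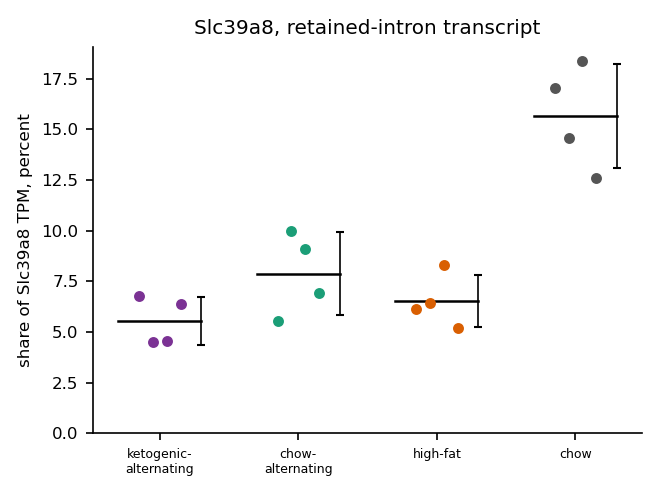
Share in percent of the Slc39a8 retained-intron transcript in Slc39a8 TPM, per library (points) with the group mean and SD (line and bar, n = 4). The chow libraries sit between 12.6% and 18.4%, above all others.

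The members were set beside the composition of the library. Across the 16 libraries, the share of TPM in the 20 most abundant genes was negatively related to Slc30a1 (Pearson's r -0.765, Spearman's rho -0.756, permutation p = 0.00051 for r, adjusted p = 0.00204 over the 8 members) and to Slc39a14 (r -0.733, rho -0.765, p = 0.00048, adjusted p = 0.00204). Without the 2 libraries farthest from the median share r was -0.554 for Slc30a1 and -0.639 for Slc39a14. Slc39a8 had r -0.583 (rho -0.447, permutation p = 0.0208, adjusted p = 0.0554). Without those 2 libraries this r was -0.148, so the relation across diets rests on them. Of 10740 other genes, 17.8% had an r at or below that of Slc30a1, 22.3% at or below that of Slc39a14 and 41.3% at or below that of Slc39a8, so nothing particular to these members is read from it. On deviations from group means, not recomputed without the 2 farthest libraries, r was -0.867 for Slc30a1, -0.610 for Slc39a14 and -0.805 for Slc39a8. Of the 10740 other genes, 8.36%, 43.6% and 18.8% had an r at or below these values, in that order. Slc39a4 (r 0.166), Slc30a10 (r 0.414), Mt1 (r 0.189) and Mt2 (r 0.003) had unadjusted p for r from 0.112 to 0.992, and Slc30a10 a rho of 0.526 with adjusted p = 0.102 (unadjusted permutation p = 0.0383, n = 16).

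The genes most like each member across the 16 libraries were ranked among 10740 genes of at least 1 TPM on average, by Pearson's r of log2(TPM + 1). The 16 points share library and diet group, so no p is given. For Slc39a4 they were Gsta1 (r 0.924), Epb41l1 (r 0.911) and Rbpms (r 0.909), with r of 0.811, 0.845 and 0.704 on deviations from group means. For Slc30a10 they were Mreg (r 0.915), Nfil3 (r 0.911) and Elovl3 (r 0.878), with 0.852, 0.830 and 0.628. Slc39a14 was most like Steap4, Xbp1 and Mmp15 (r 0.885 to 0.907), Slc39a8 like Arl8b, Snx25 and Clock (r 0.923 to 0.956), and Slc30a1 like Rrn3, Pank2 and Ddx19b (r 0.909 to 0.926). Mt1 and Mt2 were most like each other (r 0.938), followed by Ccdc141 (r 0.838) and Hsbp1l1 (r 0.772) for Mt1 and Slc50a1 (r 0.804) and Adgrl1 (r 0.759) for Mt2. On deviations from group means r was 0.906 for Mt1 with Mt2, 0.807 and 0.564 for the neighbours of Mt1, and 0.814 and 0.912 for those of Mt2. These are descriptions of 16 values each.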

How the data were processed

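RNA in 16 mouse liver libraries, 4 per diet group, was sequenced in paired reads of 150 bases. The authors deposited TPM per gene and per transcript. Per the submitters' processing notes, reads were aligned with HISAT2 to mm10 and quantified with RSEM 1.1.17 on Ensembl 96. Those notes name FPKM, and how TPM was made is not given in the sources used here. TPM shows no depth, so no counting interval is given, and a rise of abundant genes lowers all others.

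From these values, log2(TPM + 1) was fitted with limma 3.58.1 (R 4.3.3, trended variance) for each pair of groups, over genes of at least 1 TPM in 4 of the 8 libraries, with Benjamini-Hochberg adjustment and a threshold of 0.05. Transcript shares were fitted as log2 odds with an offset of 0.1 TPM, and compared by exact permutation. Each fit was tested on simulated data. Alternatives were a pseudocount of 0.1, no filter, upper-quartile scaling, 1 fit over all libraries, a replicate block, and leaving out libraries. The members and the gene lists were chosen with earlier results of these data known. Named are the 8 members, genes of the other lists that passed in any comparison, the 4 most abundant other zinc genes and the 3 genes most like each member. Sequences come from RefSeq (GRCm38.p6) and GENCODE vM21 (GRCm38). A result on Slc39a14 transcripts is not reported here.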

Additional observations from a re-analysis of the deposited data

Results flagged for a closer look

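In 3 of 32 groups of 4 libraries, 1 library lay so far from the others that its gap to the nearest, divided by the range of the group, passed Dixon's 95% critical value. Chance flags about 1 in 20 groups if values are normally distributed, which was not checked. The gaps were taken on TPM and not on the log2 scale used for the differences, so a flag may depend on the scale. Ketogenic-alternating library 1 was flagged for Mt1 at 718 TPM, against 45.3 to 115 TPM in the other 3 of its group, and for Mt2 at 507 TPM, against 9.32 to 44.8 TPM. High-fat library 3 was flagged for Slc39a4 at 11.1 TPM, against 6.48 to 6.94 TPM in the other 3 high-fat libraries.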

How the results depend on the processing

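For the differences of the 8 members, 583 of 587 alternative values moved by less than the spread between libraries, 4 moved by more and 0 reversed a called direction. The 4 came from leaving out the libraries over 33% in 20 genes. There the log2 fold change of Slc39a4, high-fat minus chow, was -1.96, and the log2 fold change of Slc30a10, high-fat minus chow, was -1.001. The log2 fold change of Slc39a14, chow-alternating minus high-fat, was -0.37, and the log2 fold change of Slc39a14, ketogenic-alternating minus high-fat, was -0.20, against 0.11 and 0.27 with all libraries. Among the other zinc genes, the 1 call in ketogenic-alternating minus chow-alternating became 0 with no filter, with 1 fit over all 16 libraries, with upper-quartile scaling and with the replicate block, and 0 to 2 on leaving out single libraries. In ketogenic-alternating minus chow, leaving out single libraries gave 0 to 2 calls, and the 2 without chow library 1 were Slc30a5 and Slc39a9. Member transcript shares, at 0 calls in limma, had unadjusted exact p below 0.05 for 1 in high-fat minus chow, 1 in ketogenic-alternating minus high-fat, 1 in chow-alternating minus chow and 2 in ketogenic-alternating minus chow. The relation of Slc39a8 to the share of the top 20 genes was -0.409 without chow library 3. Over all genes, calls numbered 116 in high-fat minus chow (19 to 380 over the alternatives), 5 in chow-alternating minus high-fat (1 to 32), 4 in ketogenic-alternating minus high-fat (1 to 22), 554 in ketogenic-alternating minus chow-alternating (97 to 2513), 126 in chow-alternating minus chow (3 to 242) and 555 in ketogenic-alternating minus chow (181 to 1620). Under upper-quartile scaling, the share of calls that were higher was 40.7% in place of 85.6% in ketogenic-alternating minus chow-alternating, and 59.1% in place of 73.3% in ketogenic-alternating minus chow.

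Replicate numbers did not pair the samples: deviations of same-numbered libraries correlated between -0.590 and 0.396 over 24 pairs, 4 of them over 0.1, and 2 libraries matched their own number best. Under the replicate block, Mt1 and Mt2 were called in chow-alternating minus high-fat, and Slc39a4 was no longer called in ketogenic-alternating minus chow. Nothing is read from either, since the members were chosen on these levels. Depth is unknown, so differences of Slc39a5 at under 1 TPM could not be judged.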

Other observations

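Genes of related metals and signals were listed beside the zinc genes. Of 8 glucocorticoid response genes, Tat, which breaks down tyrosine, fell to 391 ± 17.8 TPM in ketogenic-alternating, against 812 ± 293 TPM in chow (log2 difference -0.98, SE 0.22, limma adjusted p = 0.0293, SD over 4 libraries each). That call was lost without any of ketogenic-alternating libraries 1 to 4 or chow libraries 2 and 4, with adjusted p up to 0.0869. No other gene of the list passed in any comparison. Of 12 acute phase genes, Saa2 rose to 79.4 ± 34.2 TPM in high-fat, against 13.2 ± 5.41 TPM in chow (2.48, SE 0.34, limma adjusted p = 0.00667). Saa2 also rose in chow-alternating against chow (3.18, SE 0.55, adjusted p = 0.0234, limma), a call that held without 3 of 8 single libraries. Saa1 rose in ketogenic-alternating against chow (2.55, SE 0.57, limma adjusted p = 0.0264), and was not called without ketogenic-alternating library 3, chow library 3 or chow library 4. Lcn2 rose in high-fat (1.70, SE 0.33, limma adjusted p = 0.0349) and chow-alternating (1.85, SE 0.38, adjusted p = 0.0458) against chow, each held without 1 of 8 single libraries. Orm1, a plasma acute phase glycoprotein, fell to 706 ± 188 TPM in ketogenic-alternating, against 1374 ± 174 TPM in chow-alternating (-0.99, SE 0.17, limma adjusted p = 0.0127), and held without each of 8 single libraries. Orm1 also fell in ketogenic-alternating against chow (-0.90, SE 0.22, limma adjusted p = 0.0424), and held without 3 of 8. Of 9 manganese and iron genes limma called 0 in each comparison, and 5 had an unadjusted p below 0.05 in ketogenic-alternating minus chow-alternating, 2 in ketogenic-alternating minus chow, 1 in ketogenic-alternating minus high-fat, 1 in high-fat minus chow and 0 in the other 2. Over all genes the same rule passed 29.0%, 22.2%, 10.05% and 11.6% in those 4 comparisons. Of 8 copper genes limma called 0 in each comparison, with 1 at an unadjusted p below 0.05 in chow-alternating minus high-fat, 1 in ketogenic-alternating minus high-fat, 1 in ketogenic-alternating minus chow and 0 in the other 3, beside 4.15%, 10.05% and 22.2% of all genes in the 3 named.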
